A study of Bubalus bubalis with 3 samples.

Results

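The names examined were bta-miR-151-5p, bta-miR-151-3p and bta-miR-28, written below without the prefix for cattle, which are 3 of the 622 names in the deposited miRNA table of water buffalo adipose tissue. They were chosen by name, as arms of related hairpins that arose from repeat sequence, and all 3 were listed. The miR-151 hairpin was chosen in part because both of its arms were known to be abundant here, so that abundance is given as a description. The name miR-28 carries no arm ending in the table, and no second miR-28 name was listed.

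The tissue was fat of Chinese swamp buffalo, a type of Bubalus bubalis, at an age of 6 months, and small RNA was sequenced from 3 samples that form 1 group. Their libraries are called 1, 2 and 3 after the numbers in their titles. No treatment, genotype, sex or fat depot was given, and all 3 samples came through an abattoir. The labels do not say that each sample came from a separate animal, so SDs and p-values measure the spread between these samples only, which may be technical. With 1 group, no contrast between conditions could be made.

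A miRNA is cut from a hairpin precursor whose 5' side gives the 5p arm and whose 3' side gives the 3p arm. Each arm can be loaded into an Argonaute protein, where its seed, a short stretch near its 5' end, selects target mRNAs. miR-28 and miR-151 descend from LINE-2, an ancient mobile element. A pair of copies of such an element facing each other can fold into a hairpin when transcribed. The arms of these precursors are thus near reverse complements of each other. In humans miR-151 lies in an intron of PTK2, the gene of focal adhesion kinase, and miR-28 lies in an intron of LPP, a gene of cell adhesion sites. The 5p arms of human miR-28 and miR-151 share most of their sequence but start at different points on it, so their seeds differ. The sources used here do not say how reads matching both names were divided.

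Values are TPM as deposited. Each value is relative to the total over the listed names, so a rise of one abundant name lowers the others. The steps between low values put the depth at 6860000, 6770000 and 5480000 reads in libraries 1, 2 and 3. A name was called tested when its mean was at least 10 TPM, which 166 names were, and all 3 names examined were among them. miR-10b alone held 26.5%, 48.8% and 40.4% of TPM in libraries 1, 2 and 3. No miRNA defines adipose tissue alone. Vessel wall miRNAs (4 of 4 at 10 TPM or more) summed to between 167343 and 281175 TPM. Most of that sum was miR-143, with 254722, 153646 and 220689 TPM in libraries 1, 2 and 3. The part of vessel wall cells in it was not tested. Striated muscle miRNAs (0 of 7) summed to between 9.9 and 36.2 TPM, and epithelial miRNAs (0 of 5) to between 7.1 and 15.4 TPM. The hepatocyte miRNA miR-122 had at most 0.6 TPM.

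miR-151-5p was the dominant product of the 3. It had 5449.2, 3244.5 and 3399.5 TPM in libraries 1, 2 and 3, a mean of 4031 ± 1231 TPM (SD, n = 3). It was highest in library 1, while libraries 2 and 3 lay close together. It held rank 19 of 622 by mean, and ranks 21, 18 and 24 in the single libraries. As a share of all TPM it made up 0.545% in library 1 (95% Wilson interval 0.539% to 0.550%), 0.324% in library 2 (0.320% to 0.329%) and 0.340% in library 3 (0.335% to 0.345%). These intervals cover counting error only, since PCR reads without molecular identifiers are not independent molecules.

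miR-151-3p, the other arm of that hairpin, had 1168.8, 590.9 and 1200.3 TPM, a mean of 987 ± 343 TPM (SD, n = 3). Libraries 1 and 3 were nearly level and library 2 was low, so that the highest value was 2.03-fold the lowest. Its rank was 41 by mean and moved little between libraries, at 42, 40 and 39.

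miR-28 was the least abundant, with 237.2, 142.8 and 187.4 TPM and a mean of 189 ± 47.2 TPM (SD, n = 3). It was highest in library 1, lowest in library 2 and between them in library 3, and it held rank 77 by mean with ranks 79, 71 and 80. An estimated 1628, 967 and 1028 reads lay behind these values, against 37404, 21964 and 18642 for miR-151-5p.

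**Figure D1:**
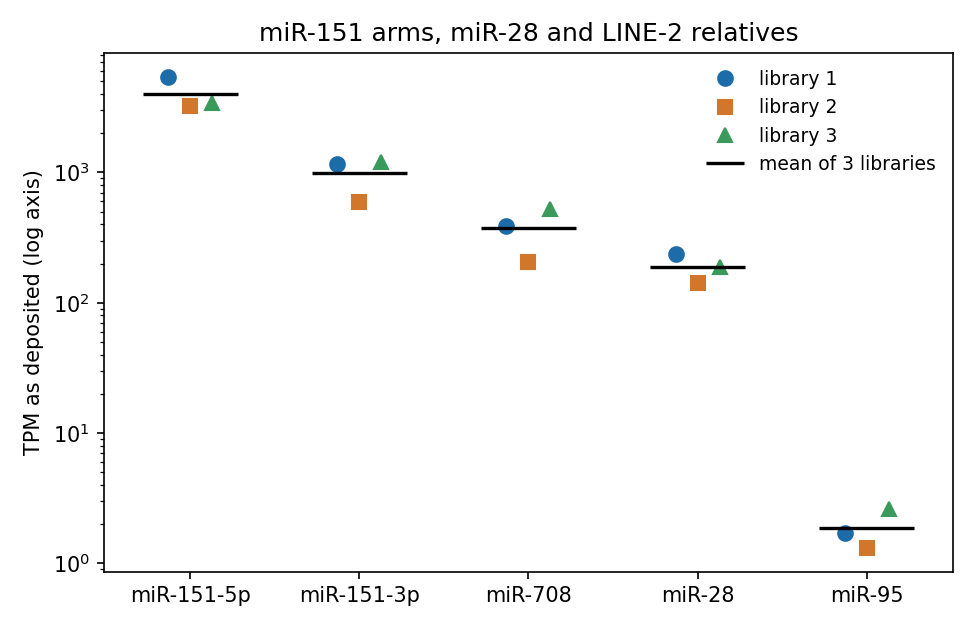
TPM as deposited on a log axis for the miR-151 arms, miR-28 and the LINE-2 relatives miR-708 and miR-95, with 1 point for each of the 3 libraries and a line at the mean. The miR-151 arms lie at means of 4031 and 987 TPM, miR-708 at 375, miR-28 at 189 and miR-95 at 1.87 TPM, and the highest and lowest library of miR-28 differ 1.66-fold.

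The 3 names together held 0.521% ± 0.148 of TPM (SD, n = 3), with 0.686%, 0.398% and 0.479% in libraries 1, 2 and 3. Within that sum miR-28 kept a small part, 3.46%, 3.59% and 3.91%. The part of miR-151-5p was 79.5%, 81.6% and 71.0%, and that of miR-151-3p was 17.0%, 14.9% and 25.1%. The make-up was thus alike in libraries 1 and 2, and in library 3 the 3p arm took a larger part at the cost of the 5p arm.

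The order miR-151-5p, miR-151-3p, miR-28 was the same in every library. miR-151-5p exceeded miR-28 23.0-fold, 22.7-fold and 18.1-fold, a difference of log2(TPM + 1) of 4.40 ± 0.19 (SD, n = 3). miR-151-3p exceeded miR-28 4.93-fold, 4.14-fold and 6.41-fold, a difference of 2.34 ± 0.32. Both differences were positive in 3 of 3 libraries and many times their SD. By exact sign-flip permutation, two-sided, each had p = 0.25, also after adjustment over the 2 pairs, which is the smallest p that 3 libraries allow.

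The neighbours in abundance were less clearly apart. Directly above miR-151-5p stood miR-30d (4672 ± 1379 TPM, SD, n = 3), which was higher in 2 of 3 libraries, and directly below it let-7i (4016 ± 1926 TPM), which was lower in 2 of 3. Next in turn were miR-99a-5p above (5066 ± 1754 TPM) and miR-186 below (3917 ± 883 TPM). miR-151-3p stood between miR-451 of red blood cells (1061 ± 640 TPM) and miR-145 of smooth muscle (961 ± 479 TPM), and neither kept its side in all 3 libraries. miR-192 (1067 ± 358 TPM) and miR-126-3p of endothelium (811 ± 200 TPM) were the next. miR-28 stood between let-7d (198 ± 103 TPM), which was higher in 1 of 3 libraries, and miR-130a (186 ± 79.7 TPM), a repressor of PPARG, which was lower in 2 of 3. The next were the lymphocyte miRNA miR-150 (209 ± 146 TPM) and miR-423-5p (179 ± 68.5 TPM). None of the 6 direct neighbours differed from its member by more than the SD of the difference.

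The balance of the miR-151 arms was compared within each library. Reads of 5p made up 82.3% of the hairpin's total in library 1 (95% Wilson interval 82.0% to 82.7%), 84.6% in library 2 (84.1% to 85.0%) and 73.9% in library 3 (73.4% to 74.4%). The mean share was 80.3% ± 5.63 (SD, n = 3), and the ratio of 5p to 3p was 4.66, 5.49 and 2.83. The 3 intervals did not overlap, with library 3 standing lowest. The libraries thus differed by more than the counting error of independent reads, which PCR reads are not. Among the 20 hairpins compared below, only the intervals of miR-199a and miR-411c were likewise apart in all 3 libraries. Such intervals are wider where reads are fewer, so hairpins of unlike depth are not comparable in this. The 5p share of miR-151 does not depend on how libraries are scaled to each other.

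On the log2(TPM + 1) scale 5p exceeded 3p by 2.22, 2.46 and 1.50, a mean of 2.06 ± 0.50 (SD, n = 3), higher in 3 of 3 libraries. In limma, fitted over the 20 hairpins with both arms listed and a mean of 10 TPM or more for the more abundant arm, the difference had a moderated SE of 0.30 and a Benjamini-Hochberg adjusted p of 2.8e-08. A called arm difference was common among these hairpins: 85.0% were called in either direction, 55.0% with more 5p (11 hairpins) and 30.0% with more 3p (6 hairpins). That p leans on the spread pooled over hairpins. For miR-151 alone exact sign-flip permutation, two-sided, gave p = 0.25, the smallest that 3 libraries allow. The arms also differ in sequence, and a part of library preparation in their ratio was not tested.

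**Figure D2:**
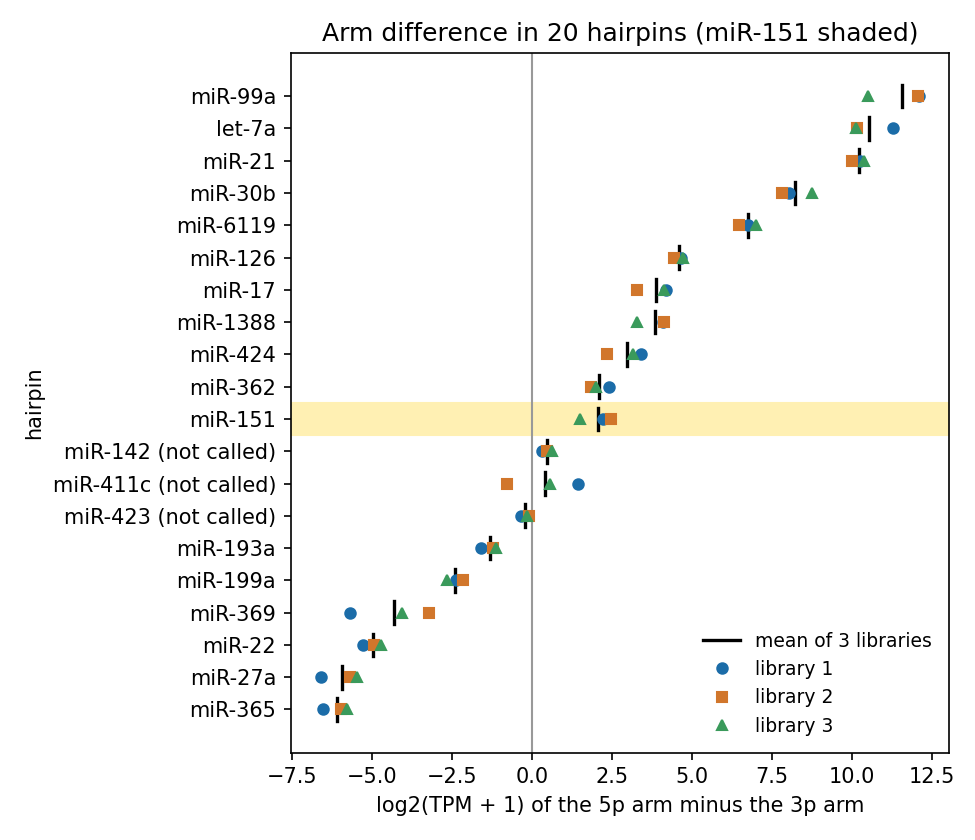
Difference of log2(TPM + 1) between the 5p and the 3p arm in 20 hairpins, with 1 point per library and a bar at the mean of 3 libraries; the miR-151 row is shaded and hairpins without a call are marked. miR-151 lies at 2.06, with libraries 1 and 2 at 2.22 and 2.46 and library 3 at 1.50, and 15 of the other hairpins have a larger difference in either direction.

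The miR-151 arms were closer in level than those of most hairpins. The hairpin was chosen in part for the abundance of both arms, so its place among the others is only a description. In size its difference ranked 16 of 20, against a median size of 4.10 log2 units. The hairpins nearest to it in size were miR-362 (2.08 ± 0.29, SD, n = 3), miR-199a, where 3p was the higher arm (-2.40 ± 0.25), and miR-193a, also with more 3p (-1.31 ± 0.25). Of the 20, miR-151 had the most abundant minor arm, 987 TPM, ahead of miR-126-3p at 811 TPM and miR-199a-5p at 358 TPM. Only 4 hairpins had 100 TPM or more of both arms, the fourth being miR-423. The minor arm of miR-362 had 1.67 TPM, so its like ratio rests on few reads.

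The lower 5p share of miR-151 in library 3 was set against the other hairpins. The arm difference was lowest in library 3 for 5 of the 20 hairpins and highest there for 9, with a median deviation from the hairpin's mean of 0.16 in that library. For miR-151 the deviation was -0.56 in library 3, and 0.16 and 0.40 in libraries 1 and 2. The other 4 hairpins with their lowest difference in library 3, named after their values were seen, were miR-99a (deviation -1.06), let-7a (-0.39), miR-1388 (-0.55) and miR-199a (-0.26). The SD of the miR-151 difference, 0.50, ranked 8 of 20, near the median SD of 0.43. Every hairpin with a larger SD had a minor arm of 17.5 TPM or less. Of the 4 hairpins with 100 TPM or more of both arms, miR-151 had the largest SD. The others had 0.25 (miR-199a), 0.15 (miR-126) and 0.14 (miR-423). In library 3 miR-151 thus lay towards 3p while 15 of the 20 hairpins were not at their lowest there, and the cause was not tested.

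Across libraries the 2 arms did not follow each other closely. Relative to its own mean on the log2(TPM + 1) scale, miR-151-5p deviated by 0.48, -0.27 and -0.20 in libraries 1, 2 and 3, and miR-151-3p by 0.31, -0.67 and 0.35. miR-28 deviated by 0.36, -0.37 and 0.02. All 3 names were lowest in library 2, as were 91.6% of the tested names. miR-151-5p and miR-28 were highest in library 1, as were 69.3% of the tested names, whereas miR-151-3p was highest in library 3.

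Because so many names were low in library 2, where miR-10b was highest, the values were also divided by size factors (1.39, 0.609 and 1.16), the median ratio of the tested names to their geometric mean over the libraries. The order of the libraries then changed. miR-151-5p came to 3926, 5331 and 2938 TPM and was highest in library 2, with deviations of -0.01, 0.43 and -0.43. miR-28 came to 171, 235 and 162 TPM and was likewise highest in library 2, with deviations of -0.13, 0.33 and -0.20. miR-151-3p came to 842, 971 and 1037 TPM, nearly level, with deviations of -0.17, 0.04 and 0.13. The library in which miR-151-5p or miR-28 was highest therefore depended on the scaling, while the fall of the 5p to 3p ratio in library 3 did not.

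**Figure D3:**
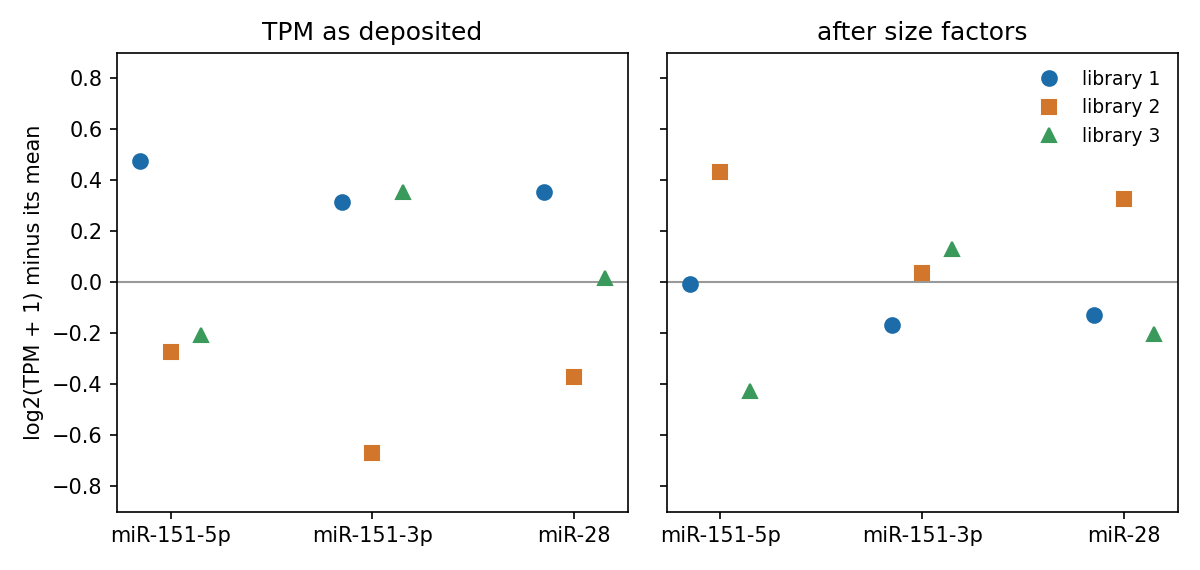
Deviation of log2(TPM + 1) from the name's own mean over 3 libraries for miR-151-5p, miR-151-3p and miR-28, as deposited on the left and after size factors on the right. Library 2 lies lowest for all 3 names on the left (-0.27, -0.67 and -0.37), and highest for miR-151-5p (0.43) and miR-28 (0.33) on the right.

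As deposited, the spread between libraries was below the median of the tested names for all 3. The SD of log2(TPM + 1) was 0.41 for miR-151-5p, 0.58 for miR-151-3p and 0.36 for miR-28, against a median of 0.66 over the tested names. Of the 166 tested names, 15.7%, 36.7% and 8.43% had a smaller SD, in that order. After size factors the SDs were 0.43, 0.15 and 0.29 against a median of 0.29, and 65.7%, 22.3% and 48.2% of names had a smaller one. miR-28 was thus among the least variable names as deposited and near the middle after size factors, and miR-151-3p became the steadiest of the 3. The order of the SDs depended on the scaling. When miR-10b was taken out and the rest rescaled, they were 0.19 for miR-151-5p, 0.40 for miR-151-3p and 0.11 for miR-28, so that miR-151-3p was again the least steady. Single libraries set these values. The SD of miR-151-5p dropped to 0.048 when library 1 was left out. Leaving out library 2 brought miR-151-3p to 0.027 and miR-28 to 0.24.

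**Figure D4:**
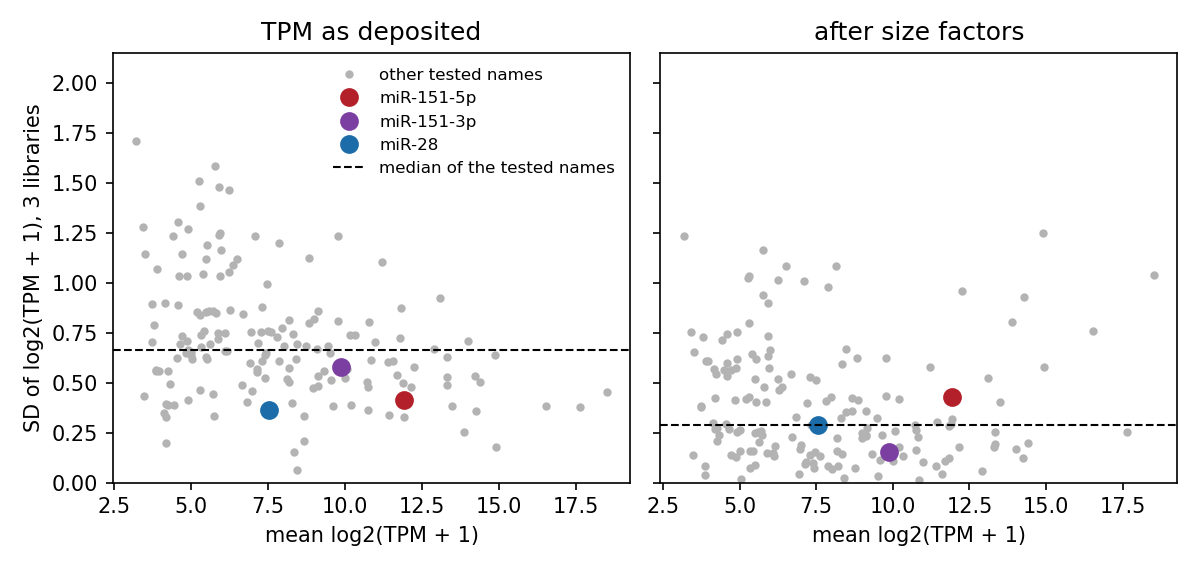
SD of log2(TPM + 1) over 3 libraries against its mean for the 166 tested names, as deposited on the left and after size factors on the right, with a dashed line at the median SD. miR-28, miR-151-3p and miR-151-5p lie below the median of 0.66 on the left, and on the right miR-151-5p (0.43) lies above the median of 0.29 and miR-151-3p (0.15) below it.

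Markers of blood cells were set beside these levels. White blood cell miRNAs summed to 914.4, 190.0 and 296.5 TPM in libraries 1, 2 and 3, with 4 of 5 at 10 TPM or more. Red blood cell miRNAs summed to 6181.8, 2557.5 and 5045.7 TPM, with 3 of 3 at that level. No marker of either list was at 0 in every library. Both sums were highest in library 1 and lowest in library 2, as miR-151-5p and miR-28 were before size factors. So were 65.7% of the tested names (109 of 166). After size factors the red blood cell sums were about level, at 4454, 4202 and 4361 TPM, but their members were not all level. Among them miR-451 then had 1071, 534 and 1185 TPM, lowest in library 2. The white blood cell sums were then 659, 312 and 256 TPM, lowest in library 3, while miR-151-5p and miR-28 were highest in library 2. The part of either cell type in the levels was not tested. In bulk tissue, fewer cells of a type and less RNA per cell cannot be told apart.

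The nearest relatives were described beside them. miR-708, another LINE-2 miRNA, lies in an intron of TENM4 in humans, and its 5p arm has the same seed as that of miR-28. It had 390.1, 205.2 and 528.4 TPM, a mean of 375 ± 162 TPM (SD, n = 3), highest in library 3. It exceeded miR-28 1.64-fold, 1.44-fold and 2.82-fold, in 3 of 3 libraries, a difference of log2(TPM + 1) of 0.91 ± 0.51. miR-28 therefore held 37.8%, 41.0% and 26.2% of the sum of both names, the least in library 3. The table gives neither name an arm, so the sum is one of a shared seed only if both names stand for 5p arms. That sum was 564 ± 192 TPM, below miR-151-3p alone in each library. miR-95, also from LINE-2, had 1.7, 1.3 and 2.6 TPM. Of the 3 further LINE-2 names looked for (miR-95, miR-325 and miR-708), 2 were listed and 1 reached 10 TPM.

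Both miR-151 arms were lowest relative to miR-708 in library 3. miR-151-5p exceeded miR-708 14.0-fold and 15.8-fold in libraries 1 and 2 and 6.43-fold in library 3. miR-151-3p exceeded it 3.00-fold, 2.88-fold and 2.27-fold. These ratios are taken within a library and are not affected by scaling.

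The 3 names were also set beside 26 miRNAs that lie in introns of protein-coding genes in humans, each represented by its more abundant arm. All 26 were listed, 20 reached a mean of 10 TPM, and the median of all 26 was 236 TPM. The median of those 20 was 322 TPM, against 168 TPM for all 166 tested names. The most abundant were miR-26a (96857 ± 23850 TPM, SD, n = 3), encoded in CTDSP genes, endothelial miR-126-5p (20165 ± 6544 TPM), encoded in EGFL7, and miR-186 (3917 ± 883 TPM). The least abundant were miR-208b and miR-499, both encoded in myosin genes (0.500 and 2.77 TPM), and miR-335 (5.0 TPM), encoded in the imprinted MEST. Of the 26, 2 exceeded miR-151-5p, 7 exceeded miR-151-3p and 13 exceeded miR-28. miR-151-5p thus stood near the top of these intronic miRNAs and miR-28 in the middle.

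Profiles over the 3 libraries were compared by the root mean square difference of deviations of log2(TPM + 1). Nearest to miR-151-5p were miR-24-3p (0.024 log2 units), miR-191 (0.037), miR-342 (0.096), miR-1388-5p (0.11) and miR-125a (0.12), against a median of 0.43 over the other 165 tested names. Nearest to miR-151-3p were miR-101 (0.022), endothelial miR-126-5p (0.059), miR-339b (0.060), miR-26b (0.060) and miR-193a-3p (0.066), against a median of 0.25. Nearest to miR-28 were miR-186 (0.028), miR-9-5p (0.038), the candidate name 6_27184 (0.051), miR-143 (0.062) and miR-342 (0.066), against a median of 0.34. Only 3 values make up each profile, so many names lie close by and likeness is a description.

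By that measure the arms of miR-151 were not close. The SD of their log2 difference, 0.50, ranked 8 of 20 hairpins, near the median of 0.43. It was the largest among the 4 hairpins with 100 TPM or more of both arms. miR-151-3p stood in place 74 of 165 among the names nearest to miR-151-5p, at 0.41 log2 units, and miR-28 in place 11, at 0.16. After size factors these places were 72 and 11. The 5p arm of miR-151 therefore resembled miR-28 more than it resembled its own 3p arm in these 3 libraries. Unrelated names were nearer still, and among the names nearest to miR-28, miR-151-5p stood only in place 25 of 165. How reads matching both names were divided is not stated.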

How the data were processed

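Small RNA reads were processed by the authors, who deposited TPM values, per the file headers, in 1 table with a column per library and 1 decimal. Per the submitters' processing notes, Bowtie and the bovine build UMD3.1 were used, with neither version nor step stated. Not given in the sources used here are the counting program, annotation, filters and treatment of reads matching several names. All 3 columns were mapped to samples by name. The worth of 1 read was taken from the steps between values up to 25 TPM (0.146, 0.148 and 0.182 TPM), on which 100% of 396, 366 and 367 values lay within rounding, against 68.6%, 67.7% and 54.8% for values placed at random. Reads are thus estimates, and no count model was fitted. On simulated tables of 622 names the step was off by at most 0.546%. The precision this depth gives is shown by 95% Wilson intervals.

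Values were analysed as log2(TPM + 1), a scale that understates differences of low names. Arm differences were tested with limma 3.58.1 in R 4.3.3, two-sided, against 0, with Benjamini-Hochberg adjustment over 20 hairpins at 0.05. In 100 simulated tables of 20 hairpins it recovered 96.7% of differences of 2 log2 units and called 3.9% of hairpins with none. Other values were computed in Python 3.11.15 with numpy 2.4.6, pandas 2.3.3 and scipy 1.17.1. Alternatives were other pseudocounts, minimum means, size factors, removal of miR-10b and of each library. The members, the lists and the tests were chosen with earlier results of these data known. Names other than the members were taken by rule: 2 neighbours in abundance on each side, the 5 nearest profiles, the 3 hairpins nearest in arm difference, LINE-2 relatives, and the 3 highest and 3 lowest intronic names.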

Additional observations from a re-analysis of the deposited data

How the results depend on the processing

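No paired analysis was possible between groups because the series holds 1 group. The miR-151 arm difference stayed between 1.86 and 2.34 log2 units with a library left out, and limma called it under every pseudocount, minimum mean, scaling and left-out library run. Its adjusted p ran from 3.1e-09 to 0.0013. The exact sign-flip permutation test of the same difference (2.06, p = 0.25) cannot pass the threshold with 3 libraries. Both differences from miR-28 kept their direction throughout. Taking out miR-10b and rescaling raised the means of miR-151-5p, miR-151-3p and miR-28 to 6487, 1586 and 305 TPM, by construction, and put their SDs at 0.19, 0.40 and 0.11. Size factors put the SD of miR-151-3p at 0.15 and the share of names with a smaller SD at 65.7% for miR-151-5p, 22.3% for miR-151-3p and 48.2% for miR-28. With no minimum mean these shares were 54.3%, 69.9% and 49.0%, and with a minimum of 1 TPM that of miR-28 was 14.3%. With a library left out the SD ranged from 0.048 to 0.53 for miR-151-5p, from 0.027 to 0.72 for miR-151-3p and from 0.24 to 0.51 for miR-28. Of the 5 nearest profiles of miR-28, 3 remained with a pseudocount of 10, 3 with a minimum of 100 TPM and 2 with no minimum. Of those of miR-151-5p, 2 remained with a minimum of 1 TPM and 2 with none. Of those of miR-151-3p, 2 remained with a pseudocount of 10, 2 with a minimum of 1 TPM, 3 with 100 TPM and 2 with none. With a minimum of 1 TPM, 2 LINE-2 relatives passed in place of 1. At 967 to 1628 estimated reads a library, counting error of miR-28, with reads taken as independent, is small beside the spread between libraries.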
